A study of Mus musculus with 25 samples.

Results

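The genes described here are 10 genes of hepatic stellate cells and myofibroblasts, Acta2, Tagln, Pdgfrb, Des, Reln, Lum, Dcn, Vim, Thbs1 and Ecm1. They were chosen by name, with earlier results of these data known. Each symbol was matched to its Ensembl identifier, which gave 10 of 41388 gene identifiers. All 10 were among the 14065 genes that were kept for testing. Liver RNA came from 25 male mice, each giving 1 library, and the labels give the strain as C57B/6J and the age as 20 weeks. Every mouse had received an AAV8 virus, a vector that reaches hepatocytes, with either an empty vector (EV) or NAMPT, the rate-limiting enzyme of NAD salvage, under the hepatocyte promoter of thyroxine binding globulin. WT mice carried floxed Sirt1 alleles without Cre, and LKO mice carried the same alleles with Albumin-Cre, which acts in hepatocytes. The groups were chow-fed WT with EV (chow WT EV, n = 3) and, after 12 weeks of Western diet (WD), WT with EV (WD WT EV, n = 6), WT with NAMPT (WD WT NAMPT, n = 6), LKO with EV (WD LKO EV, n = 5) and LKO with NAMPT (WD LKO NAMPT, n = 5). The transgene and the Cre thus act in hepatocytes, whereas most of the 10 genes belong to other cells.

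Hepatic stellate cells store vitamin A beside the sinusoids of a healthy liver. On injury they can become myofibroblasts, which contract, divide in response to platelet-derived growth factor and lay down fibrillar collagen, and transforming growth factor beta is the best known signal that drives this change. Acta2 and Tagln encode smooth muscle actin and transgelin of the contractile apparatus, Des and Vim encode the intermediate filament proteins desmin and vimentin, Pdgfrb encodes the receptor of platelet-derived growth factor B, and Thbs1 encodes thrombospondin-1, a matrix-associated protein that can release active transforming growth factor beta. Lum and Dcn encode lumican and decorin, small proteoglycans that bind collagen fibrils, and Reln encodes reelin, a secreted protein that quiescent stellate cells also make. Ecm1 encodes a secreted matrix protein that in the liver is made largely by hepatocytes. Vim and Thbs1 are also used by macrophages, endothelial cells and other cells of the sinusoid. In bulk liver, fewer cells of a type and less RNA per cell cannot be told apart.

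Acta2 is the gene by which myofibroblasts are usually recognised, and its promoter is shown because it carries the element that smooth muscle genes are known for. That element is the CArG box, the binding motif of serum response factor. The RefSeq table of promoters (GRCm38.p6, 250 bases before to 50 bases after each start) held 5 of the 10 genes, Acta2, Des, Reln, Vim and Ecm1. None of the 5 windows held a CArG box with only A and T in its 6-base core, against 1.63% of 32851 promoters. When 1 core base was allowed to be G or C, the Acta2 window held 2 boxes and the other 4 windows held 0. At least 2 such boxes were found in 0.822% of all promoters, and at least 1 in 9.98%. The motif reads the same way on both strands, and its 2 copies do not overlap. The bases before the start of Acta2 lie on the minus strand at chr19:34255374-34255623, and the capitals mark the boxes, which begin 84 and 34 bases before the start in the table:
Acta2: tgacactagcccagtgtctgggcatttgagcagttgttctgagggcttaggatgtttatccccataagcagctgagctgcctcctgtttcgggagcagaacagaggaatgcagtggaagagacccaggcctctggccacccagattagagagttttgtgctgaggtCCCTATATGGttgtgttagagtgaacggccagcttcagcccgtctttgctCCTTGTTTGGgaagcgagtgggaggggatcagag

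The genes lie on 8 chromosomes (GRCm38), and Dcn (chromosome 10 from 97479500 to 97518162) and Lum (97565501 to 97572703) are neighbours on the plus strand, 47339 bases apart. Vim (13573927 to 13582826) and Thbs1 (118111876 to 118127133) share chromosome 2. Acta2 is on chromosome 19 from 34241090 to 34255336, Tagln on chromosome 9 from 45929628 to 45936058, Pdgfrb on chromosome 18 from 61045150 to 61085061 and Des on chromosome 1 from 75360329 to 75368579. Reln is on chromosome 5 from 21884454 to 22344702 and Ecm1 on chromosome 3 from 95734147 to 95739569. Exons of Tagln overlap those of Pcsk7 on the other strand over 65 bases, those of Des overlap Gm15179 over 220 bases, those of Reln overlap Gm10475 over 246 bases and those of Thbs1 overlap Gm29233 over 208 bases. Ecm1 shares 63 bases with Mir7014 on its own strand. Whether reads were counted by strand is not given in the sources used here, so reads in these stretches cannot be assigned to either gene.

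The 10 genes spanned a wide range of levels. Levels are CPM, read counts scaled to library size with TMM normalization, and between genes they are compared as CPM per kilobase of exon. Over 25 libraries Dcn was highest at 70.1 ± 10.3 CPM per kb (SD), followed by Ecm1 at 49.0 ± 7.38 and Vim at 14.8 ± 8.56. The next 4 in order were Reln at 5.78 ± 0.538 CPM per kb, Tagln at 5.31 ± 1.93, Lum at 3.95 ± 1.76 and Pdgfrb at 2.94 ± 0.845. The 3 lowest were Acta2 at 1.61 ± 0.867 CPM per kb, Des at 1.28 ± 0.329 and Thbs1 at 0.885 ± 0.625. The steps between Reln, Tagln, Lum and Pdgfrb and those between Acta2, Des and Thbs1 were smaller than the larger of the neighbours' SDs. Within the same library, Reln was above Tagln in 15 of 25 and Acta2 above Des in 14 of 25, while the other neighbours kept their order in 20 to 24 libraries. The lowest genes rested on few reads, with 18 to 276 counts per library for Acta2, 28 to 737 for Thbs1 and 50 to 310 for Des, against 2207 to 7221 for Dcn.

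**Figure D1:**
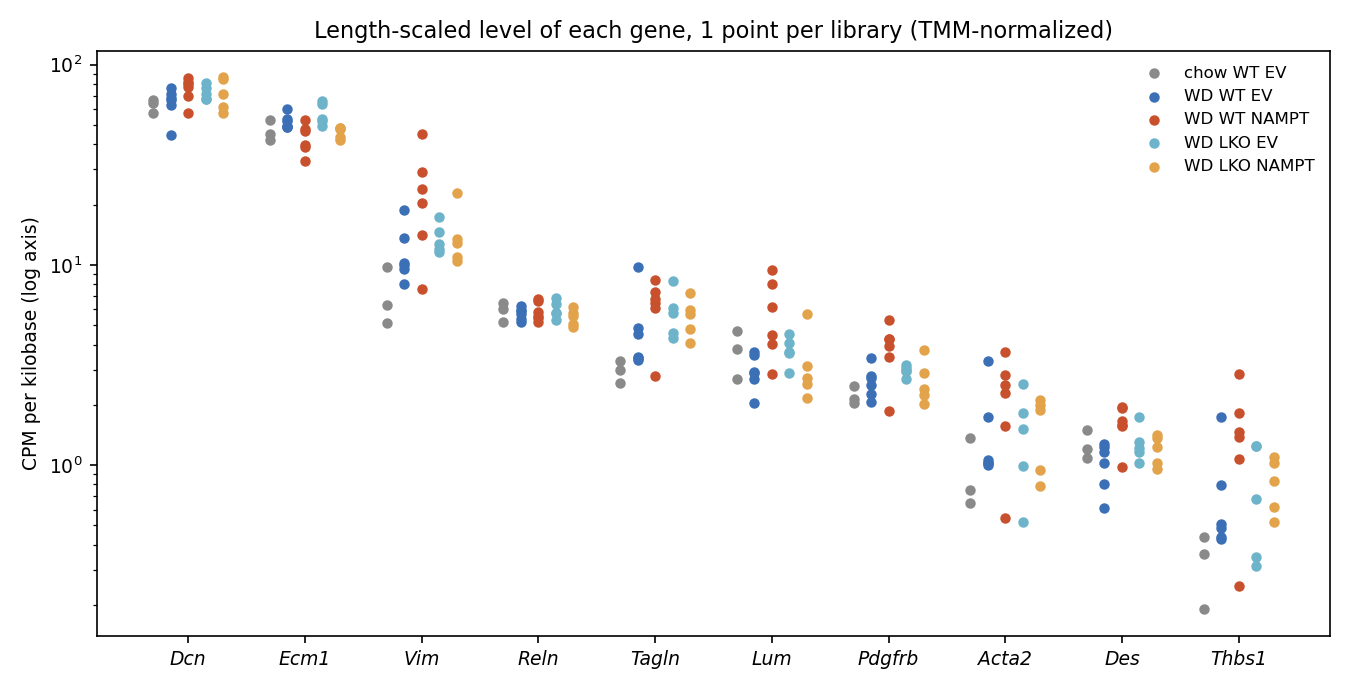
CPM per kilobase of exon (log axis) of the 10 genes, with 1 point per library coloured by group. Dcn and Ecm1 lie highest at means of 70.1 and 49.0 CPM per kb and Thbs1 lowest at 0.885, and the points of Reln and Dcn are packed more tightly than those of Vim, Acta2 and Thbs1.

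Total gene counts ran from 20166175 to 32937326 per library. Inside each group no library was a copy of another, and pairs across groups were not checked for this. Of the marker lists, that of hepatocytes had the highest sum in every library, at 44623 to 78245 CPM for 6 markers. Of 14 other stellate cell markers, 13 were kept, and the exception was Gfap, which had at most 18 counts in any library. Sirt1 averaged 8.57 CPM in WD LKO EV (SD 1.34, n = 5) against 8.86 CPM in WD WT EV (SD 0.573, n = 6), so the counts over the whole gene did not separate the libraries labelled LKO from WT. Under NAMPT it averaged 9.82 CPM in the libraries labelled LKO (SD 1.36, n = 5) and 8.58 CPM in WT (SD 0.617, n = 6), and the difference of 0.19 ± 0.11 on the log2 scale had an adjusted p of 0.237 in limma. Nampt averaged 47.4 CPM with EV (SD 6.46) and 59.5 CPM with NAMPT (SD 10.6) in WT, n = 6 each (log2 fold change 0.34 ± 0.16, adjusted p = 0.144 in limma). The averages in the libraries labelled LKO were 56.1 CPM (SD 12.0) and 79.9 CPM (SD 28.4), n = 5 each (0.41 ± 0.16, adjusted p = 0.403). A few libraries stood apart. Replicate 6 of WD WT NAMPT was the lowest of its group for 9 of the 10 genes, all but Ecm1. Its Nampt level of 59.9 CPM was near the group mean. Replicate 2 of the same group was the highest for 7 of the 10, and its Nampt level of 46.8 CPM was the lowest of the group. Replicate 4 of WD WT EV was the highest of its group for Acta2, Tagln, Vim and Thbs1.

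With the NAMPT vector in WT mice on WD, Pdgfrb, Des, Lum, Vim and Thbs1 rose, by 1.49-fold to 2.25-fold. A total of 5 of the 10 genes were called at an adjusted p of 0.05 or less, all of them higher, while 13.4% of all genes tested were called and 7.67% were called higher. The test was the moderated limma test with Benjamini-Hochberg adjustment over 14065 genes. The median log2 fold change of the 10 genes was 0.61, beside 0.00 over all genes. Acta2, Tagln, Reln and Dcn were also higher on average and Ecm1 was lower, but these 5 did not pass. The libraries of both groups overlapped for each of the 10 genes, and 0.960% of all genes had groups that did not overlap. With the edgeR quasi-likelihood test 2 of the 10 were called (Des and Lum), and with DESeq2 4 were (Pdgfrb, Des, Lum and Vim). The shares of all genes given here are those of limma and were not counted for edgeR and DESeq2.

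Among the cytoskeletal genes, Vim had the widest range. In WD WT EV it was lowest at 18.6, had a median of 23.6 and was highest at 44.0 CPM. In WD WT NAMPT it was lowest at 17.8, had a median of 51.6 and was highest at 105.6 CPM. The 4 upper NAMPT libraries lay above every EV library, while replicate 6 lay below all of them. Vim had a log2 fold change of 0.90 ± 0.23 (SE) and an adjusted p of 0.0152 in limma. Des was lowest at 2.29, had a median of 4.09 and was highest at 4.81 CPM in WD WT EV, against a lowest value of 3.66, a median of 6.07 and a highest value of 7.31 CPM in WD WT NAMPT. A total of 5 of 6 NAMPT libraries lay above the highest EV library, and replicate 6 was the exception. Des had a log2 fold change of 0.66 ± 0.16 (SE) and an adjusted p of 0.0151. The call of Des was lost without NAMPT replicate 3 (adjusted p = 0.0673). The call of Vim was lost without EV replicate 2 (0.0707), without EV replicate 6 (0.0537) or without NAMPT replicate 3 (0.079).

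The contractile genes Acta2 and Tagln did not pass in this comparison. Acta2 was lowest at 1.78, had a median of 1.86 and was highest at 5.86 CPM in WD WT EV, and it was lowest at 0.970, had a median of 4.28 and was highest at 6.51 CPM in WD WT NAMPT. In WD WT EV, 4 libraries sat between 1.78 and 1.89 CPM, and replicate 4 reached a level within the upper NAMPT range. The log2 fold change was 0.68 with a 95% interval of -0.05 to 1.4 (limma adjusted p = 0.197). Tagln went from a median of 6.33 CPM (lowest 5.31, highest 15.4) to a median of 10.5 CPM (lowest 4.42, highest 13.3). The extremes of Tagln were the same libraries as for Acta2, replicate 4 on the EV side and replicate 6 on the NAMPT side. For Tagln the log2 fold change was 0.48 ± 0.20 (SE), with an adjusted p of 0.107. Without EV replicate 4 Tagln was called (0.64, adjusted p = 0.0183), as it was without NAMPT replicate 6 (0.54, adjusted p = 0.0457). Acta2 was not called without either of these libraries, with adjusted p of 0.0749 and 0.126.

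Pdgfrb, the growth factor receptor, was lowest at 11.3, had a median of 14.4 and was highest at 18.9 CPM in WD WT EV. In WD WT NAMPT it was lowest at 10.2, had a median of 22.3 and was highest at 29.0 CPM. A total of 4 NAMPT libraries were above every EV library, a further one was level with the highest EV library, and replicate 6 was below them all. Pdgfrb had a log2 fold change of 0.57 ± 0.13 (SE) and the lowest adjusted p of the 10 genes in limma (0.0128). Without EV replicate 2 the adjusted p was 0.0551. Thbs1 had the largest fold change of the 10 and also the largest error of the 5 that were called. It was lowest at 2.60, had a median of 3.03 and was highest at 10.5 CPM in WD WT EV, and it was lowest at 1.51, had a median of 8.65 and was highest at 17.4 CPM in WD WT NAMPT. The groups overlapped at both ends, with EV replicate 4 above 4 of the 6 NAMPT libraries and NAMPT replicate 6 below every EV library. Thbs1 had a log2 fold change of 1.17 ± 0.38 (SE) and an adjusted p of 0.0431. The call of Thbs1 was held in 4 of the 12 fits that left out 1 library. It was lost without any of EV replicates 2, 6, 7 and 8 and NAMPT replicates 1, 2, 3 and 4, where the adjusted p ran from 0.0525 (without NAMPT replicate 4) to 0.177 (without EV replicate 2).

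The neighbouring proteoglycan genes differed. Lum was lowest at 4.26, had a median of 6.03 and was highest at 7.59 CPM in WD WT EV, and it was lowest at 5.93, had a median of 11 and was highest at 19.5 CPM in WD WT NAMPT. A total of 5 of 6 NAMPT libraries lay above every EV library, the exception again being replicate 6. The log2 fold change was 0.87 ± 0.21 (SE), with an adjusted p of 0.0137. The call of Lum was lost without EV replicate 2 (adjusted p = 0.0551) or NAMPT replicate 3 (0.0728). Dcn went from a median of 139.7 CPM (lowest 93.2, highest 159.7) to a median of 164.1 CPM (lowest 118.9, highest 179.4), and its log2 fold change of 0.23 ± 0.11 (SE) had an adjusted p of 0.166. Reln, the quiescent-cell gene, averaged 113.4 CPM with EV (SD 7.72) and 116.5 CPM with NAMPT (SD 12.9), n = 6 each. Its log2 fold change had the narrowest 95% interval of the 10 genes, from -0.09 to 0.25. Ecm1 was the only one of the 10 with a lower average under NAMPT, with means of 131.1 CPM with EV (SD 11.1) and 108.2 CPM with NAMPT (SD 18). Its log2 fold change was -0.27 ± 0.09 (SE), with an adjusted p of 0.056. Without any of EV replicates 1 and 4 and NAMPT replicates 4, 5 and 6 the adjusted p of Ecm1 was at or below 0.05, at 0.0124 to 0.0432.

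**Figure D2:**
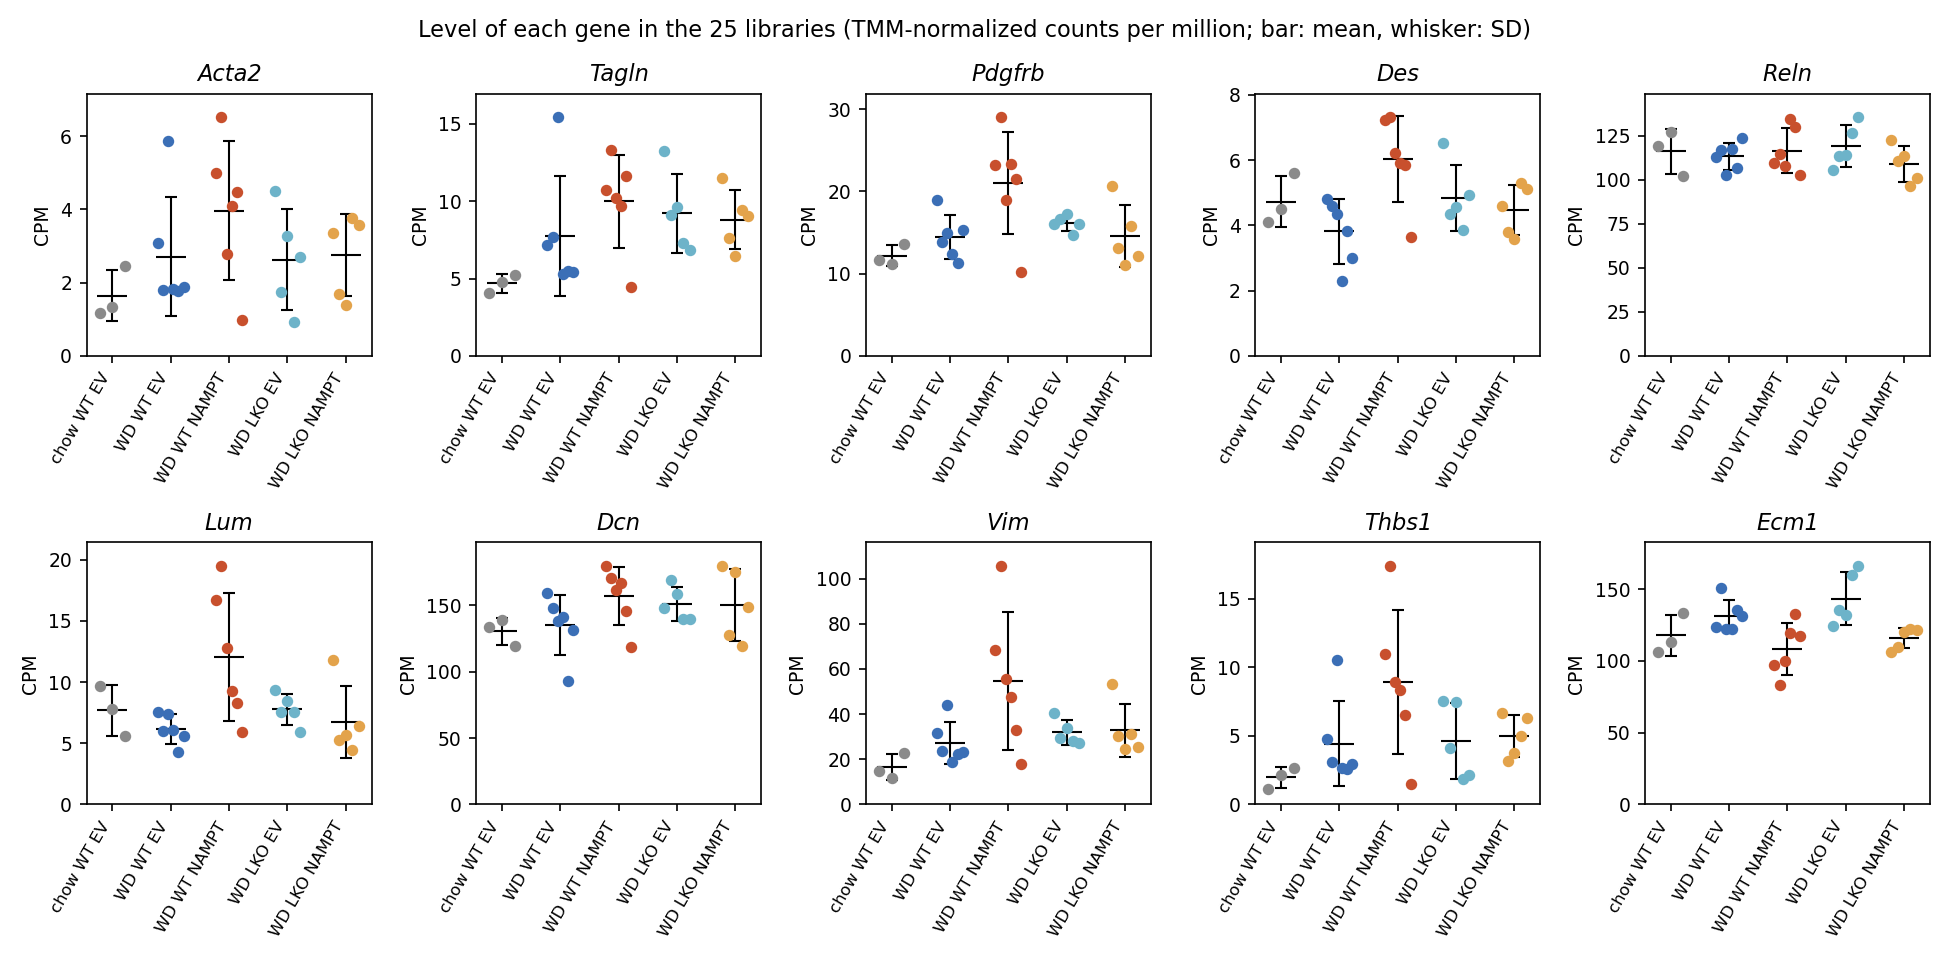
TMM-normalized CPM (linear axes from 0) of each of the 10 genes by group, with 1 point per library and the mean and SD of each group in black. In WD WT NAMPT, 5 of 6 points of Des and Lum sit above every WD WT EV point and replicate 6 sits at the bottom for 9 genes, while Reln differs little between the groups.

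Leaving out NAMPT replicate 6, which was the low library for 9 of the genes, gave 7 called genes in WT (the 5 above with Tagln and Ecm1), while 20.2% of all genes were called. The log2 fold changes without it were 0.61 for Pdgfrb, 0.70 for Des, 0.95 for Lum, 1.03 for Vim and 1.31 for Thbs1, with adjusted p between 0.0021 and 0.0103 in limma. Without NAMPT replicate 3 or without EV replicate 2, 1 gene was called (0.938% and 2.07% of all genes). Without EV replicate 6, 3 genes were called (4.44% of all genes). In the limma fit, NAMPT replicates 1 to 6 had quality weights of 0.5061, 0.401, 1.624, 1.853, 0.9215 and 0.3357. EV replicate 2 had 1.908, the highest of its group. With no sample quality weights in the limma fit 0 of the 10 were called, and with 2 surrogate variables 0 were called. The share of all genes called in these 2 fits was not counted. The log2 fold changes with the surrogate variables were 0.19 for Pdgfrb, 0.36 for Des, 0.28 for Lum, 0.08 for Vim and -0.18 for Thbs1, against 0.53 to 1.09 for the same genes without quality weights.

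Other genes of the pathway moved in the same comparison. Of 13 other stellate cell genes tested, 5 were called higher and 0 lower, with a median log2 fold change of 0.38. Of all genes tested, 7.67% were called higher. The 4 with the largest changes were Cygb, the globin of stellate cells (1.0 ± 0.20, adjusted p = 0.00868), Steap4, a metalloreductase (0.63 ± 0.16, 0.0155), Bambi, a decoy receptor of transforming growth factor beta (0.57 ± 0.15, 0.0184), and Rgs5, a regulator of G-protein signalling in pericytes (0.49 ± 0.15, 0.0283). All 4 rose, and the fifth was Pdgfra at 0.38 ± 0.12. The edgeR test called 2 of the 13 and DESeq2 4. Of 9 other contractile genes tested, 2 were called higher, Flna, the actin crosslinker filamin A (0.95 ± 0.18, 0.00677), and Mkl1, a coactivator of serum response factor (0.40 ± 0.12, 0.0331), while edgeR and DESeq2 each called 1. The other smooth muscle genes Cnn1, Actg2, Lmod1 and Myocd were not kept, each with at most 0.846 CPM in any library.

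The ligands of the receptors described above were in a list of 15 genes of fibrogenic signalling. Of these, 6 were called higher and 0 lower (median 0.53) by limma, 1 by edgeR and 2 by DESeq2. The limma share of all genes called higher was again 7.67%. Pdgfb, the ligand of Pdgfrb, rose from 2.98 to 5.57 CPM on average (0.91 ± 0.19, adjusted p = 0.00922). Tgfb1 rose from 16.4 to 29.2 CPM (0.88 ± 0.20, 0.0115), and Cyr61, a matricellular target of these pathways, rose from 12.9 to 18 CPM (0.70 ± 0.22, 0.0404). Of 5 fibrillar collagen genes, 4 were called higher (median 1.17), with log2 fold changes of 1.70 ± 0.48 for Col1a1, 1.17 ± 0.33 for Col1a2, 1.18 ± 0.33 for Col3a1 and 0.69 ± 0.18 for Col5a1. By the edgeR quasi-likelihood test 0 of the 5 collagens were called, and by DESeq2 0 were. Of 6 other small leucine-rich proteoglycan genes 0 were called by limma, edgeR or DESeq2, with 2 at an unadjusted p under 0.05. These were Bgn, the biglycan gene (0.29 ± 0.11, adjusted p = 0.0874), and Omd, the osteomodulin gene (-0.68 ± 0.29, 0.108). Of 7 portal fibroblast and mesothelial markers 0 were called by any of the 3 tools, with 1 at an unadjusted p under 0.05.

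Markers of other cells were looked at in the same contrast, where limma called 13.4% of all genes and 7.67% were called higher. Of 8 macrophage markers 5 were called higher, among them Marco (2.79 ± 0.76), Cd68 (1.0 ± 0.23), Adgre1 (0.91 ± 0.23) and Cd5l (0.91 ± 0.22), and edgeR called 4 and DESeq2 5. Their summed level was 306.6 to 444.5 CPM in WD WT EV and 289.4 to 812.3 CPM in WD WT NAMPT, and replicate 6, the low library for the stellate cell genes, was also the lowest of its group here. None of the 8 was at 0 in all libraries of a group. Of 4 neutrophil markers tested 2 were called higher (S100a9 and Csf3r; 1 by edgeR and 2 by DESeq2), and the summed level of the 6 listed had a median of 6.41 CPM in WD WT EV and 16.9 CPM in WD WT NAMPT. Of 8 endothelial markers Pecam1 was called higher (0.36 ± 0.11, adjusted p = 0.0304) and Clec4g, a lectin of sinusoidal cells, lower (-0.40 ± 0.10, 0.0179), with 4 of the 8 at an unadjusted p under 0.05 and 0 called by edgeR or DESeq2. Their summed level was 352.2 to 410.8 CPM and 339.5 to 420.3 CPM in the same groups. Of 7 lymphocyte markers 1 was called higher by limma (Cd2) and 0 by edgeR or DESeq2. Of 6 hepatocyte markers 1 was called lower by limma (Cyp2e1, -0.98), 0 by edgeR and 1, Ttr in place of Cyp2e1, by DESeq2, and of 5 cholangiocyte markers 0 were called by any of the 3 tools, with 0 at an unadjusted p under 0.05. The part of macrophages, neutrophils and endothelial cells in the changes of the 10 genes was not tested.

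In the libraries labelled LKO, the NAMPT vector went with 0 called genes of 10. A share of 0.00711% of all genes was called. At an unadjusted p under 0.05 there was 1 of the 10 (Ecm1), beside 9.63% of all genes, and edgeR and DESeq2 called 0. The median log2 fold change of the 10 was -0.11, beside 0.02 over all genes. Ecm1 was at 124.4, 135.2, 131.7, 159.5 and 166.2 CPM in WD LKO EV and at 106.5, 109.9, 120.0, 122.0 and 121.5 CPM in WD LKO NAMPT. Each EV library was above each NAMPT library, which held for 1.15% of all genes, but the log2 fold change of -0.29 ± 0.10 (SE) had an adjusted p of 0.325. Vim was at 40.6, 29.6, 34, 28.1 and 27.1 CPM with EV and at 53.2, 30.2, 24.5, 31.3 and 25.4 CPM with NAMPT, with replicate 1 highest in either group. Lum was at 9.38, 7.52, 8.42, 7.58 and 5.95 CPM with EV and at 11.8, 5.26, 5.67, 4.48 and 6.45 CPM with NAMPT. Apart from replicate 1, every NAMPT library of Lum was below the 4 upper EV libraries, and the log2 fold change was -0.38 with an interval of -0.85 to 0.08. Pdgfrb was at 16.1, 16.7, 17.2, 14.7 and 16.1 CPM with EV and at 20.6, 13.1, 11.1, 15.8 and 12.2 CPM with NAMPT. The EV libraries of Pdgfrb were closely packed and the NAMPT libraries lay on both sides of them. Des was at 6.52, 4.36, 4.57, 3.87 and 4.93 CPM with EV and at 4.61, 3.81, 3.58, 5.29 and 5.12 CPM with NAMPT. Thbs1 was at 7.53, 4.11, 7.50, 1.89 and 2.12 CPM with EV and at 6.70, 3.16, 3.75, 5.03 and 6.28 CPM with NAMPT. Thbs1 varied over a wide range with either vector, and the interval of its log2 fold change of 0.07 ran from -0.79 to 0.92. The log2 fold changes were -0.24 for Pdgfrb, -0.10 for Des and -0.04 for Vim, and those of Acta2, Tagln, Reln and Dcn lay between -0.15 and 0.05.

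The difference between the NAMPT effect in the libraries labelled LKO and that in WT was then tested as an interaction. All 10 values were below 0 in limma, from -0.02 for Ecm1 to -1.25 for Lum, with a median of -0.69 beside -0.01 over all genes, but Acta2, Tagln and Thbs1 were above 0 with 2 surrogate variables, and Ecm1 was in 8 of 22 fits without 1 library. By limma 0 of the 10 were called, and 0.00711% of all genes were. At an unadjusted p under 0.05 there were 5 of the 10 (Pdgfrb, Des, Lum, Dcn and Vim), and 21.2% of all genes. The edgeR quasi-likelihood test called 0, and DESeq2 gave no adjusted p for any of the 10 in this test. The lowest adjusted p was 0.0681, for Lum (-1.25 ± 0.31) and Pdgfrb (-0.81 ± 0.20), and that of Des (-0.75 ± 0.23) was 0.0938. Without WD WT NAMPT replicate 6, 4 genes were called, Pdgfrb (-0.85, adjusted p = 0.0267), Lum (-1.34, 0.0276), Vim (-1.08, 0.0422) and Des (-0.79, 0.048), and 4.54% of all genes were called in that fit. Pdgfrb and Lum were called without WD WT NAMPT replicate 5 (0.0386 and 0.0324) and without WD LKO NAMPT replicate 1 (0.0219 and 0.0221), where 2.60% and 4.81% of all genes were called. The macrophage markers had negative values here as well, 8 of 8, with a median of -0.59 and 0 called by limma or edgeR, and 4 of them had an unadjusted p under 0.05.

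Under NAMPT, Pdgfrb and Lum were lower in the libraries labelled LKO than in WT, by 1.52-fold and 1.87-fold. These were 2 of the 10 genes called, both lower, where 7.96% of all genes were called and 3.78% were called lower. The log2 fold changes were -0.61 ± 0.14 (SE, adjusted p = 0.0199) for Pdgfrb and -0.90 ± 0.22 (SE, 0.0225) for Lum. The libraries of both groups overlapped for each of the 10 genes (1.39% of all genes had groups that did not), with WD WT NAMPT replicate 6 at 10.2 CPM of Pdgfrb and WD LKO NAMPT replicate 1 at 20.6 CPM. Neither was called by edgeR or DESeq2. With 2 surrogate variables the log2 fold changes were -0.25 and -0.55, and neither was called. The calls over all genes shifted widely as well, with 0 of 14065 genes called without WD LKO NAMPT replicate 2, 2 genes without WD LKO NAMPT replicate 5 and 0.555% without WD WT NAMPT replicate 3. The call of Pdgfrb was lost without WD LKO NAMPT replicate 2 (0.188), 3 (0.0505) or 5 (0.127), and that of Lum without any of these (0.188, 0.0513 and 0.121) or without WD WT NAMPT replicate 2 (0.0563) or 3 (0.0785). Without WD WT NAMPT replicate 6, 5 genes were called (Des, Vim and Thbs1 with the pair above), and so were 16.3% of all genes. Without WD WT NAMPT replicate 5 or WD LKO NAMPT replicate 1 Vim was added (0.0258 and 0.0281), and without WD LKO NAMPT replicate 4 Des was (0.0415). This comparison shares its WT NAMPT libraries with the comparison inside WT, so the values are not independent of those above. Pdgfb (-0.98 ± 0.20), Cyr61 (-0.96 ± 0.24) and Tgfb1 (-0.68 ± 0.20) of the signalling list were called lower as well, as were Cygb and Bambi of the stellate cell list, Flna of the contractile list, Csf1r and Marco of the macrophage list and Csf3r of the neutrophil list, and Cyp2e1 of the hepatocyte list was called higher. These are limma calls, of which edgeR kept 0 in each of these 6 lists, while DESeq2 called 1 gene in the signalling list, 1 in the stellate cell list and 0 in the other 4.

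With the empty vector, the libraries labelled LKO did not differ from WT in a detectable way. By limma, edgeR or DESeq2 0 of the 10 were called, 0.00711% of all genes were called by limma, and 0 of the 10 had an unadjusted p under 0.05, beside 6.33% of all genes. The 10 log2 fold changes in limma ran from 0.06 for Acta2 and Reln to 0.35 for Lum, with a median of 0.20 beside 0.00 over all genes. Acta2 was below 0 in 6 of 9 alternatives, edgeR and DESeq2 among them, and in 5 of 11 fits without 1 library, Thbs1 in 2 of each, and Tagln and Vim in 1 alternative each. The intervals were wide for the low genes, -0.72 to 0.84 for Acta2 and -0.66 to 1.07 for Thbs1, and narrower for Reln (-0.11 to 0.22) and Ecm1 (-0.10 to 0.28). Acta2 was at 4.51, 1.75, 3.26, 0.928 and 2.69 CPM in WD LKO EV, and Tagln was at 13.2, 9.07, 9.61, 7.27 and 6.84 CPM. Replicate 1 of this group was the highest for 6 of the 10 genes.

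**Figure D3:**
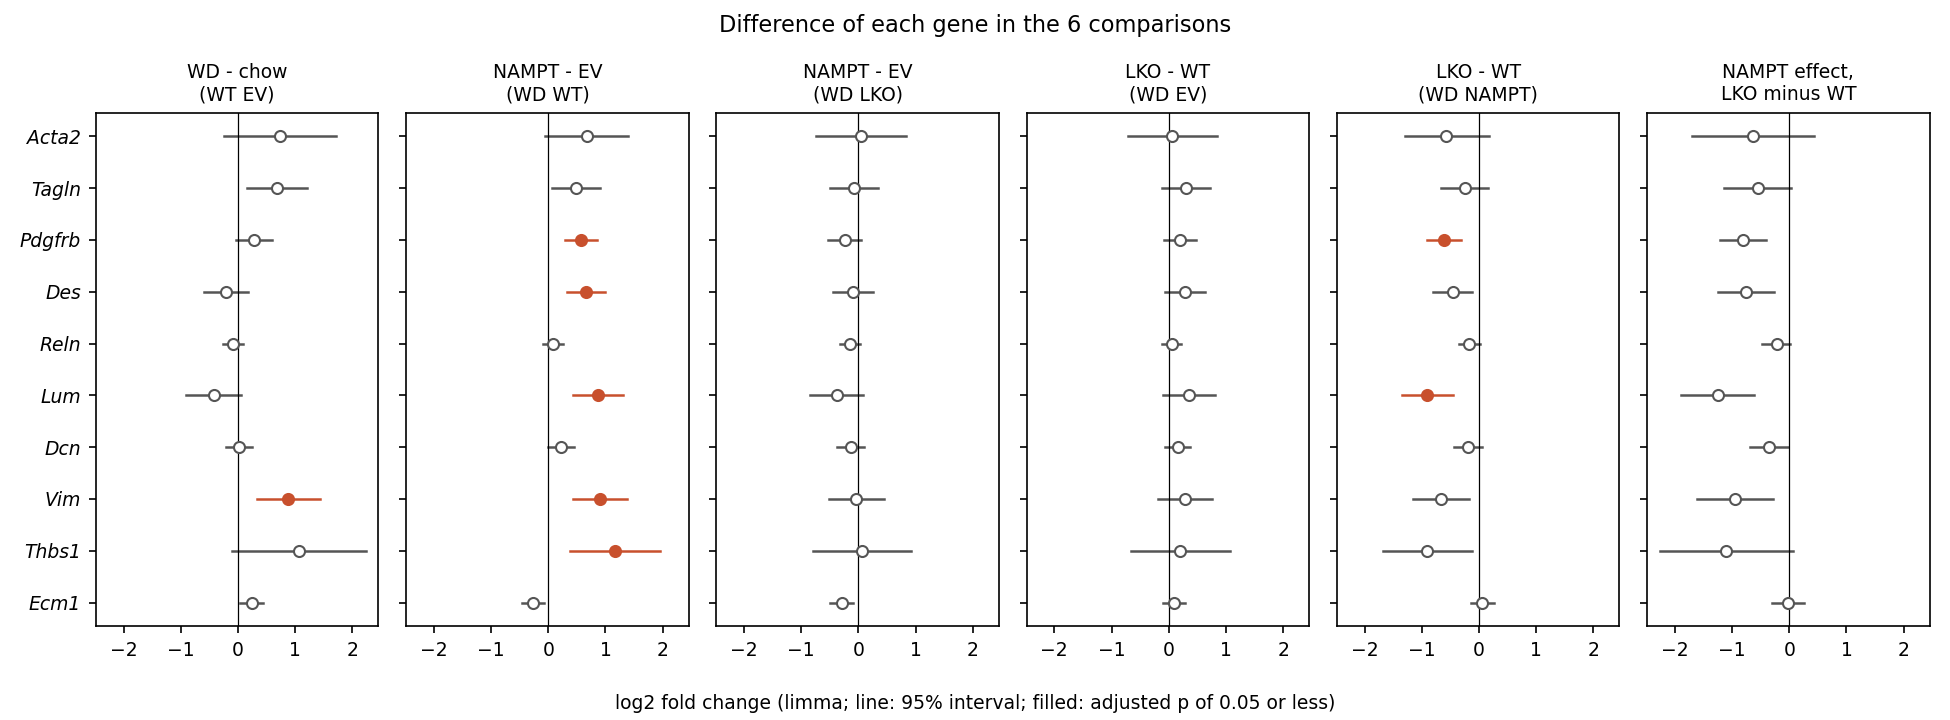
Log2 fold changes (horizontal axis) of the 10 genes in the 6 comparisons of the limma fit, with 95% intervals as lines and filled points where the adjusted p was 0.05 or less. Filled points are Pdgfrb, Des, Lum, Vim and Thbs1 under NAMPT in WT, Pdgfrb and Lum between libraries labelled LKO and WT under NAMPT, and Vim with the diet, and all 10 interaction values lie below 0.

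Western diet against chow was compared in WT EV mice. Vim rose 1.84-fold, and it was the 1 gene of 10 called by limma, where 10.1% of all genes were called higher and 12.0% lower. By edgeR and DESeq2 0 were called, and 3 of the 10 had an unadjusted p under 0.05 in limma (Tagln, Vim and Ecm1, each higher on WD), beside 35.1% of all genes. Vim was at 14.8, 11.9 and 22.8 CPM in the 3 chow livers and at 18.6 to 44.0 CPM on WD, so the groups overlapped through chow replicate 3. The log2 fold change was 0.88 ± 0.27 (SE), with an adjusted p of 0.0201. Without chow replicate 1 it was 0.63 (adjusted p = 0.338) and without chow replicate 2 it was 0.49 (0.492). Tagln was at 4.05, 4.76 and 5.25 CPM on chow and at 5.31 CPM or more in every WD library. It was the 1 gene of 10 whose groups did not overlap, beside 16.1% of all genes, and its log2 fold change of 0.68 ± 0.26 (SE) had an adjusted p of 0.0578. Tagln was called without WD WT EV replicate 6, 7 or 8 (0.0427, 0.0436 and 0.0433), and Ecm1 without chow replicate 3 (0.0475). Acta2 was at 1.16, 1.34 and 2.45 CPM and Thbs1 at 1.16, 2.18 and 2.64 CPM on chow, and their log2 fold changes of 0.74 and 1.06 had intervals that reached below 0 (-0.24 to 1.72 and -0.11 to 2.23). Lum was at 9.72, 7.83 and 5.56 CPM on chow and had a median of 6.03 CPM on WD, which is the lower of both averages (-0.42, interval -0.90 to 0.06). Des (-0.21), Reln (-0.09) and Dcn (0.02) were close to 0. This comparison uses the same WD WT EV libraries as the NAMPT comparison in WT.

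Among the lists beside the 10 genes, the diet went with calls in 3 of 13 other stellate cell genes, 1 of 9 contractile genes and 1 of 6 proteoglycan genes, beside 10.1% of all genes called higher and 12.0% lower. The stellate cell genes were Lrat, which esterifies retinol for storage in stellate cells (0.54 ± 0.11, adjusted p = 0.00175), Steap4 (0.73 ± 0.16, 0.00188) and, downwards, Bambi (-0.57 ± 0.16, 0.013). Tpm2, a tropomyosin gene, rose from 1.87 to 9.94 CPM (2.20 ± 0.46, 0.00153), and Omd rose from 1.31 to 6.39 CPM (2.08 ± 0.42, 0.00118). Of 15 signalling genes 3 were called, each higher, among them Pdgfa (0.96 ± 0.23) and Pdgfb, the latter at 1.69 CPM on chow and 2.98 CPM on WD (1.04 ± 0.28). By edgeR and by DESeq2 2 of the 15 were called, and Pdgfb was called by neither. Col3a1 was the 1 collagen gene of 5 called by limma (1.11 ± 0.36, adjusted p = 0.0297), while edgeR called 0 and DESeq2 called Col1a1 instead (0.0346 in DESeq2). Of 8 macrophage markers 2 were called higher by limma (Cd68 and Cd5l), 0 by edgeR and 1 by DESeq2, and their summed level was 247.7 to 306.6 CPM on chow and 306.6 to 444.5 CPM on WD. Of 8 endothelial markers Lyve1 rose 2.19-fold (adjusted p = 0.00825) and Kdr fell by 0.20 on the log2 scale (0.036), with 0 called by edgeR and 1 by DESeq2, and their summed level was 370.5 to 393.0 CPM on chow and 352.2 to 410.8 CPM on WD. Of 7 lymphocyte markers Nkg7 was called higher (3.36 ± 0.87) and of 6 hepatocyte markers Serpina3k lower (-0.98 ± 0.32), and edgeR and DESeq2 called 0 in both lists. The part of macrophages, endothelial cells and the others in the change of Vim was not tested.

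The genes also varied from mouse to mouse inside the groups. Likeness was measured as the Pearson correlation of log2 CPM over 25 libraries after the group means were taken off, and all values share the library, its depth and its mix of cells. Of 45 pairs among the 10 genes, 32 were above 0, with a median of 0.47. Tagln and Thbs1 were the most alike (0.90), followed by Acta2 with Thbs1 (0.88) and Acta2 with Tagln (0.86). The pairs among Acta2, Tagln, Thbs1, Vim, Pdgfrb, Lum and Des, 7 genes picked after the values were seen, ran from 0.41 to 0.90, and from 0.28 (Des with Lum) to 0.83 (Tagln with Thbs1) without the 2 libraries farthest from the median of the first gene. Dcn was most like its neighbour Lum (0.73) and less like Des (0.21) and Acta2 (0.28). Reln stood apart, with values from -0.26 to 0.33. Ecm1 had values below 0 with 8 of the other 9 genes, the lowest with Lum (-0.75), and 0.26 with Reln.

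**Figure D4:**
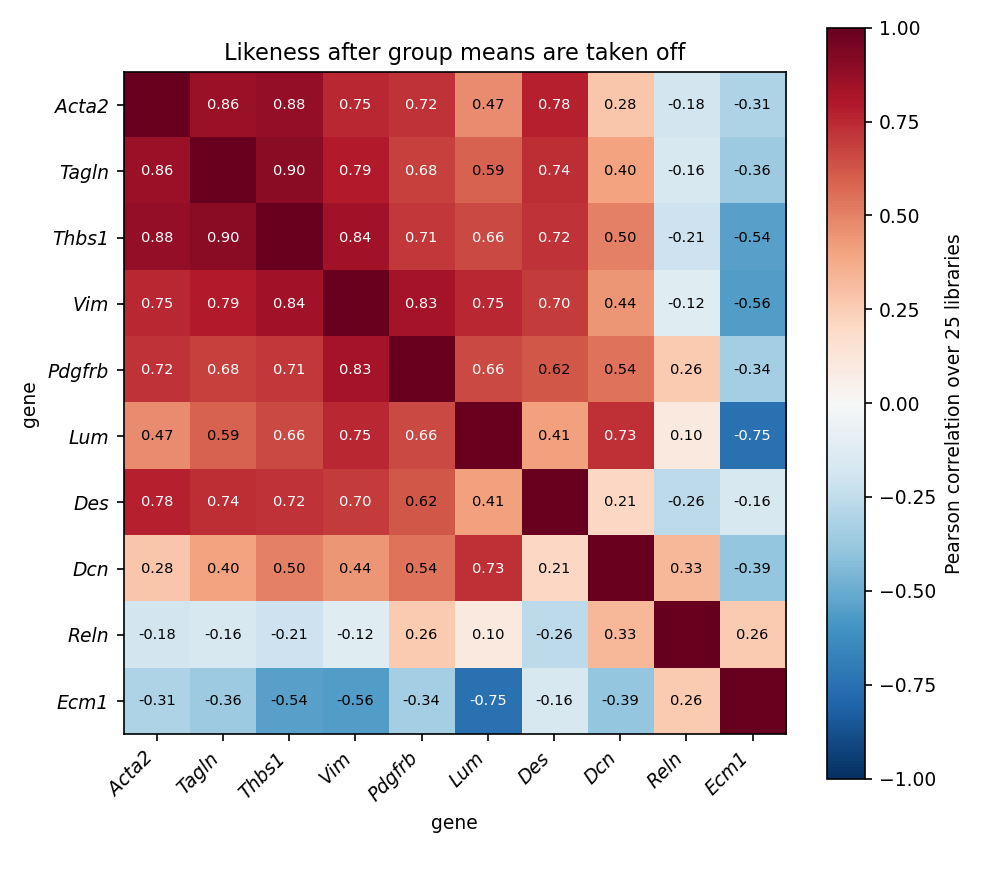
Pearson correlation of log2 CPM between each pair of the 10 genes over 25 libraries after group means were taken off (red above 0, blue below 0). Values from Acta2 to Des at the upper left are 0.41 to 0.90, and the rows of Reln and Ecm1 are near or below 0 against most genes.

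By the same measure, the 3 nearest of all 14065 genes were found for each gene. For Acta2 they were Armcx4 (0.89), Thbs1 (0.88) and Prkcd (0.86), and for Tagln Armcx4 (0.91), Thbs1 (0.90) and Tax1bp3 (0.87). Armcx4 and Thbs1 were thus shared by the contractile pair. For Thbs1 they were Stk10 (0.95), Fstl1 (0.93) and Col4a1 (0.93), and for Vim Gpr35 (0.96), Sh3pxd2b (0.96) and Arhgef2 (0.95). Pdgfrb was nearest to Lat2 (0.92), Med15 (0.91) and Glipr2 (0.90), and Des to Ccl2 (0.83), Map7d1 (0.83) and Tspan13 (0.82). Lum was nearest to Ccl6, Cd84 and Lyz2 (0.91 each), whereas Dcn was nearest to Bgn (0.92), Rgs1 (0.87) and Tlr8 (0.85). The values for Reln were the lowest of the 10, with Tet2 (0.76), Hhat (0.72) and Gprin3 (0.67), and Ecm1 was nearest to Tfr2 (0.87), Pink1 (0.85) and Chchd10 (0.85).

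The summed macrophage markers varied together with several of the genes inside groups. The correlation over 25 libraries was 0.78 for Vim, 0.77 for Pdgfrb and 0.74 for Lum. It was 0.66, 0.51 and 0.57 when, for each gene, the 2 libraries farthest from that gene's own median were left out. For Thbs1 it was 0.64, for Des 0.61, for Tagln 0.58, for Dcn 0.54 and for Acta2 0.51. With 2 libraries left out for each gene in the same way, these were 0.56, 0.40, 0.59, 0.35 and 0.25. For Reln it was 0.07 and for Ecm1 -0.43. In WD WT NAMPT, the libraries from replicate 1 to replicate 6 held marker sums of 793.9, 716.1, 812.3, 566.4, 479.7 and 289.4 CPM, and Lum was at 16.7, 19.5, 12.8, 9.24, 8.32 and 5.93 CPM in the same libraries. The part of macrophages in this variation was not tested.

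**Figure D5:**
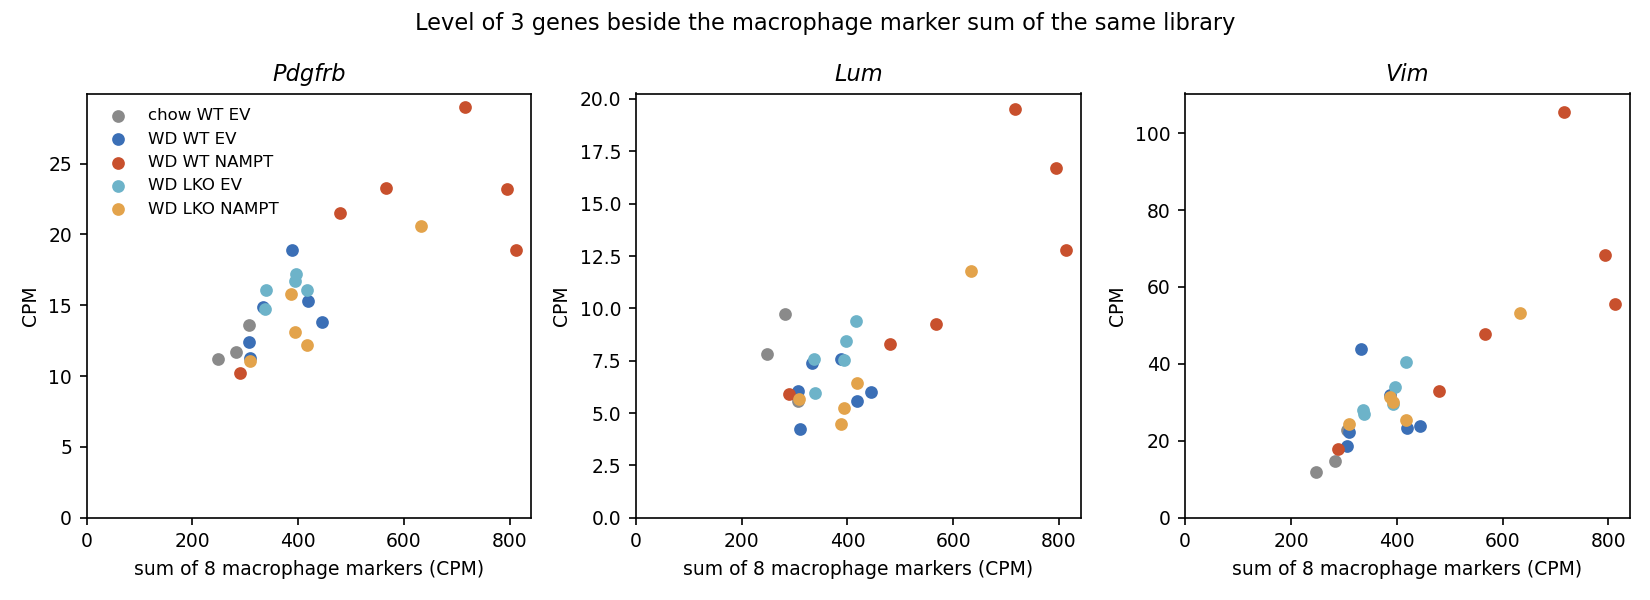
CPM of Pdgfrb, Lum and Vim (vertical axes) against the summed CPM of 8 macrophage markers (horizontal axis), with 1 point per library coloured by group. WD WT NAMPT points reach marker sums of 812.3 CPM and the highest levels of all 3 genes, and WD WT NAMPT replicate 6, at 289.4 CPM, has the lowest Pdgfrb level of all libraries (10.2 CPM).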

How the data were processed

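Liver RNA of 25 mice was sequenced after poly-A selection. Each deposited file holds raw counts per gene. The authors also gave CPM and RPKM, scaled from the same counts. Per the labels and the submitters' processing notes, reads were aligned to GRCm38 with STAR (version 2.5.1a in the notes) and counted with featureCounts 1.4.6-p5. Recomputing these from counts and gene lengths gave a largest relative deviation of 5.9e-14, and only counts were used.

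Following the methods of the study, genes above 1 CPM in at least 2 libraries were kept and 4 ribosomal RNA genes left out, leaving 14065. TMM factors (edgeR 4.0.16) and voomWithQualityWeights (limma 3.58.1, R 4.3.3) were used, in a single fit of the 25 libraries with a mean for every group. Benjamini-Hochberg adjustment ran over all genes kept, and genes were called at 0.05 or less. Errors are SE of the fit or SD between libraries, and intervals cover 95%. The labels give no batch. Likeness used log2(CPM + 0.5).

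Symbols were joined to 40254 of 41388 identifiers. The general treatment label names the insert as SIRT1 and the titles name NAMPT, and the titles were followed. Since Sirt1 was not lower in them, LKO libraries are called by their label. The genes and lists were chosen with earlier results of these data known. Every one of the 10 genes is named, and in each other list the called genes, at most the 4 with the largest change, or, where none was called, at most 2 with the smallest p. Pdgfra was named beyond this rule after its value was seen. The values of 1 list gene are not reported here. Alternatives were the edgeR quasi-likelihood test, DESeq2 1.42.0, RLE factors, library size alone, no low-count filter, no quality weights, a fit of the compared groups alone, a replicate block, 2 surrogate variables (sva 3.50.0) and leaving out each library.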

Additional observations from a re-analysis of the deposited data

Results flagged for a closer look

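In groups of 5 or 6 libraries, a library was marked when its gap to the nearest of the others was large against the range of its group (Dixon's criterion). Of 40 groups examined over the 10 genes, 5 were marked, and chance marks about 1 in 20. Replicate 4 of WD WT EV was marked for Acta2 (5.86 CPM), Tagln (15.4 CPM) and Thbs1 (10.5 CPM), in each case as the highest. Replicate 1 of WD LKO NAMPT was marked as the highest for Lum (11.8 CPM) and Vim (53.2 CPM). The macrophage marker sum was 632.9 CPM in the second of these libraries, the highest of its group, and 333.3 CPM in the first, which is inside the range of its group. What set these 2 libraries apart was not tested.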

How the results depend on the processing

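LKO below means the libraries labelled so. The number of the 10 genes called by limma depended on the processing. Beside the main fit, the share of all genes called was counted only in the fits without 1 library. The counts from the other alternatives therefore cannot be set against such a share. For diet, where 1 was called, edgeR, DESeq2, no filter and no quality weights each gave 0. The replicate block gave 4 and 2 surrogate variables gave 3. Leaving out 1 library gave 0 to 2, while 5.99% to 22.5% of all genes were called. For NAMPT in WT, where 5 were called, edgeR and no filter gave 2, and no quality weights and surrogate variables gave 0. Only the groups compared gave 3, and the replicate block gave 1. Leaving out 1 library gave 1 to 7, while 0.938% to 20.2% of all genes were called. For LKO against WT under NAMPT, where 2 were called, edgeR, DESeq2, no filter, no quality weights, only the groups compared and surrogate variables gave 0, and leaving out 1 library gave 0 to 5. The interaction gave 0 to 4 when 1 library was left out, and LKO against WT with EV and NAMPT in LKO stayed at 0 in every alternative run. The replicate numbers are reused for different mice, and same-numbered libraries deviated together in some groups and apart in others (correlations from -0.377 to 0.419), so the block joins only a number. With it, the log2 fold changes of Vim and Thbs1 for NAMPT in WT were 0.57 and 0.44, and with 2 surrogate variables that of Vim for diet was 0.43.

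Some log2 fold changes turned sign, and the cause was not tested. With the replicate block, Acta2 was -0.03 for NAMPT in WT, Vim 0.01 and Thbs1 -0.01 for NAMPT in LKO, Acta2 -0.48, Tagln -0.07, Vim -0.01 and Thbs1 -0.35 for LKO against WT with EV, and Acta2 0.11 for the interaction. With 2 surrogate variables, Dcn was -0.07 for diet, Acta2 -0.31, Tagln -0.15, Dcn -0.0028 and Thbs1 -0.18 for NAMPT in WT, Thbs1 -0.06 for NAMPT in LKO, Acta2 -0.15 and Thbs1 -0.11 for LKO against WT with EV, Acta2 0.21, Tagln 0.25 and Thbs1 0.01 for LKO against WT under NAMPT, and Acta2 0.36, Tagln 0.11 and Thbs1 0.12 for the interaction. With library size alone, Dcn was -0.03 for diet and Ecm1 -0.05 for LKO against WT under NAMPT. Vim for NAMPT in LKO was 0.05 with edgeR, 0.04 with DESeq2 and 0.0015 with no quality weights. Acta2 for LKO against WT with EV was -0.03 with edgeR, -0.04 with DESeq2, -0.02 with no filter and -0.02 with no quality weights. Leaving out 1 library turned Acta2 for LKO against WT with EV (-0.18 to 0.35), Acta2 for NAMPT in LKO (-0.24 to 0.44), Dcn for diet (-0.03 to 0.11), Des for NAMPT in LKO (-0.17 to 0.05), Ecm1 for LKO against WT under NAMPT (-0.03 to 0.15), Ecm1 for the interaction (-0.11 to 0.06), Reln for diet (-0.12 to 0.04), Tagln for NAMPT in LKO (-0.16 to 0.05), Thbs1 for LKO against WT with EV (-0.21 to 0.48), Thbs1 for NAMPT in LKO (-0.21 to 0.49) and Vim for NAMPT in LKO (-0.15 to 0.07). None of the values printed for these alternatives was called. DESeq2 gave no adjusted p for the interaction, because its automatic filter removed the 10 genes.

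The lowest counts were those of Acta2, Thbs1 and Des, with as few as 18, 28 and 50 in a library. How far depth limited their tests was not tested.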

Other observations

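The bile duct markers held values that belong to no result above. Of 5 cholangiocyte markers tested under NAMPT in the libraries labelled LKO, all 5 were lower, with a median log2 fold change of -1.12, and 0 were called by limma, edgeR or DESeq2, with 3 at an unadjusted p under 0.05, beside 9.63% of all genes. Krt7 was at -1.58 ± 0.44 and Krt19 at -1.39 ± 0.39 (SE, adjusted p = 0.222 each). Upk3b, a mesothelial gene, was at -1.84 ± 0.45 (adjusted p = 0.149) in the same comparison. Between libraries labelled LKO and WT under NAMPT, Sox9 (-1.44 ± 0.38, adjusted p = 0.0282) and Upk3b (-1.53 ± 0.46, 0.0429) were called lower by limma, and neither by edgeR or DESeq2, where limma called 3.78% of all genes lower.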
